A study of Homo sapiens with 16 samples.

Results

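Interferon stimulated genes are the genes that cells switch on when interferon binds its receptors, and 36 of them were followed here in 2 breast cancer cell lines grown in low or high glucose. They were chosen by symbol from their known biology, by a rule that used no measured value but with earlier results of these data known. All 36 of them were found among the 18332 gene IDs of the deposited table. The samples came from MDA-MB-231 and MDA-MB-468, established human breast cancer lines labelled estrogen receptor negative. Glucose was set at 5 mM (low glucose, serving as control) or at 25 mM (high glucose) over 48 hours, with 4 replicates in each of the 4 groups and 16 samples in all. Per the study's methods, all cells were conditioned in low glucose first and then received serum-free medium with either concentration. The labels name no interferon, virus or drug. MDA-MB-231 was routinely grown in DMEM and MDA-MB-468 in RPMI, so line and routine medium cannot be told apart. The study lists low and high glucose versions of DMEM only, and does not name each line's base medium over the 48 hours. The sources used here describe no osmotic control among these 16 samples. The labels do not say whether replicates were separate cultures, so the p-values measure the spread between these samples, which may be technical.

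Interferons signal through cell surface receptors and the kinases JAK1 and TYK2. These kinases activate STAT2, which joins IRF9 in the complex ISGF3. ISGF3 binds the interferon stimulated response element (ISRE) in the promoters of antiviral genes, while the gamma activated site (GAS) is an element of genes induced by interferon gamma. Many epithelial and tumor cells also express these genes at a steady level without added interferon. The interferon genes themselves were not analysed here.

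RefSeq promoter sequences, from 250 bases before to 50 bases after a start site on build GRCh38.p14, were matched for 29 of the 36 genes. IRF7, IFIT2, OAS2, OASL, GBP2, USP18 and TRIM22 had no entry. The ISRE core searched was GAAANNGAAA, or TTTCNNTTTC on the other strand, where N is any base. It was found in 19 of the 29 promoters (65.5%), against 4.38% of the 27305 genes of the promoter table. The GAS core TTCNNNGAA, which reads the same on both strands, was found in 9 of the 29 (31.0%) and in 9.38% of all genes. A gene with several start sites was counted once if any window held the motif, and the cores could overlap. Such a match describes letters and not a site shown to be bound. Only the exact spacing of these letters was searched, so a promoter without a match was not shown to lack the element. The 150 bases before the start are shown for 5 genes. IFIT1, IFIT3, HERC5 and DDX60 were among the called members with the largest falls in high glucose MDA-MB-468, while ISG15, with the same motif, did not pass the test in either line. MX1 also fell more (-0.80 on the log2 scale) than DDX60 (-0.70) but is not shown. No start site of MX1 had an ISRE core within the 150 bases before it. Capitals mark the ISRE core, in either orientation, and where 2 cores overlap the capitals run through both.
IFIT1 (chr10:89392473-89392622, plus strand): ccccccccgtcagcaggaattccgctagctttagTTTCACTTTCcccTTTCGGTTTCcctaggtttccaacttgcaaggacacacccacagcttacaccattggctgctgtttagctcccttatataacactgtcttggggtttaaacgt
IFIT3 (chr10:89332379-89332528, plus strand): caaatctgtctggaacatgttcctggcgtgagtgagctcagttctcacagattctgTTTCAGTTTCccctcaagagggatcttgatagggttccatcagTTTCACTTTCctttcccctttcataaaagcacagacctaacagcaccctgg
HERC5 (chr4:88456969-88457118, plus strand): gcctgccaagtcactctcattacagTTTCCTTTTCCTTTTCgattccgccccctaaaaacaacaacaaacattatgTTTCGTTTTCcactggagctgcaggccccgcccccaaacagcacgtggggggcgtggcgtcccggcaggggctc
DDX60 (chr4:168318753-168318902, minus strand): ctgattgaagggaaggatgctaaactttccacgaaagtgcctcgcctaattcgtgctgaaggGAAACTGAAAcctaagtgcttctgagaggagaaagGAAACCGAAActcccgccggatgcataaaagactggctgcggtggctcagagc
ISG15 (chr1:1013347-1013496, plus strand): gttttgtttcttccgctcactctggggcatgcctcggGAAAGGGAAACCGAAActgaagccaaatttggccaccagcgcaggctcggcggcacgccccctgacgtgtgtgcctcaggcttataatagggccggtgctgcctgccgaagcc

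The libraries held between 14094597 and 24425916 recovered reads, so 3 reads, the floor used here, correspond to 0.123 to 0.213 CPM (reads scaled by library depth). Values are given as normalized reads, which are reads after division by the size factor of their library. Of the line markers, vimentin (VIM) averaged 96228 in low glucose MDA-MB-231 but 21.5 in MDA-MB-468, and keratin 5 (KRT5) averaged 1.13 and 15150. CD44, listed with vimentin and ZEB1 as mesenchymal, went the other way, with 17995 in MDA-MB-231 but 25508 in MDA-MB-468 libraries (log2 difference 0.50, limma adjusted p = 5.67e-13). The estrogen receptor gene ESR1 averaged 1.30 in low glucose MDA-MB-231 but 57.9 in MDA-MB-468. The summed level of 5 leukocyte markers was 2154 to 2412 in low and 2111 to 2239 in high glucose MDA-MB-231, most of it CD68, and 174 to 219 in low and 310.2 to 362 in high glucose MDA-MB-468. In high glucose MDA-MB-468, CD14 (1.14) and NCAM1 (0.83) rose and PTPRC (-1.36) and ITGAM (-1.82) fell on the log2 scale, while CD68 was not called and 0 of the 3 tested in MDA-MB-231 were called. The pan-leukocyte gene PTPRC averaged between 3.12 and 12.5 in the 4 groups. The part of these markers in the members' values was not tested. ARRDC4, which glucose is known to induce, averaged 17.2 in low and 36.5 in high glucose MDA-MB-231, but 50.8 in the MDA-MB-468 libraries labelled low glucose and 21.1 in those labelled high glucose (log2 fold change -1.24, SE 0.19, adjusted p = 5.65e-05). This known glucose gene therefore moved against its usual direction in MDA-MB-468. The glucose labels of that line were taken as given, and every direction of a glucose response in MDA-MB-468 rests on them.

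In low glucose the 2 lines differed in which interferon stimulated genes were high. MDA-MB-231 had higher levels of 23 of the 36 genes, among them the IFIT family, BST2, IFI27 and ISG15, and MDA-MB-468 had higher levels of 11, among them MX1, OAS1 and USP18. IRF1 and IFI44L were not called. In bulk RNA such as this, fewer cells that express a gene and less of its RNA per cell cannot be told apart. The median log2 difference (MDA-MB-468 minus MDA-MB-231) was -0.93 over the members and 0.08 over the 17115 genes tested. All differences between lines were tested with limma on log2(value + 1), and a gene was called when its Benjamini-Hochberg adjusted p was under 0.05. Of all genes tested, 45.0% were called higher in MDA-MB-468 and 40.4% lower, so calls between these lines were common and the members' split of 11 higher and 23 lower is read against these shares.

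The per-length levels ordered the genes differently in the lines. Per kilobase of the canonical transcript, BST2, a membrane protein that tethers budding virus, had the highest level in low glucose MDA-MB-231 at 1860 normalized reads, followed by ISG15, a ubiquitin-like protein, at 1304, IFIT3 at 750.3 and UBE2L6 at 653. In MDA-MB-468 the E2 enzyme for ISG15, UBE2L6, came first at 858, followed by MX1 at 345.5, ISG15 at 302 and PARP14 at 268. RSAD2 (viperin), CMPK2 and IFI44L were the 3 lowest in MDA-MB-231, at 2.96, 0.252 and 3.11 per kilobase.

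**Figure D1:**
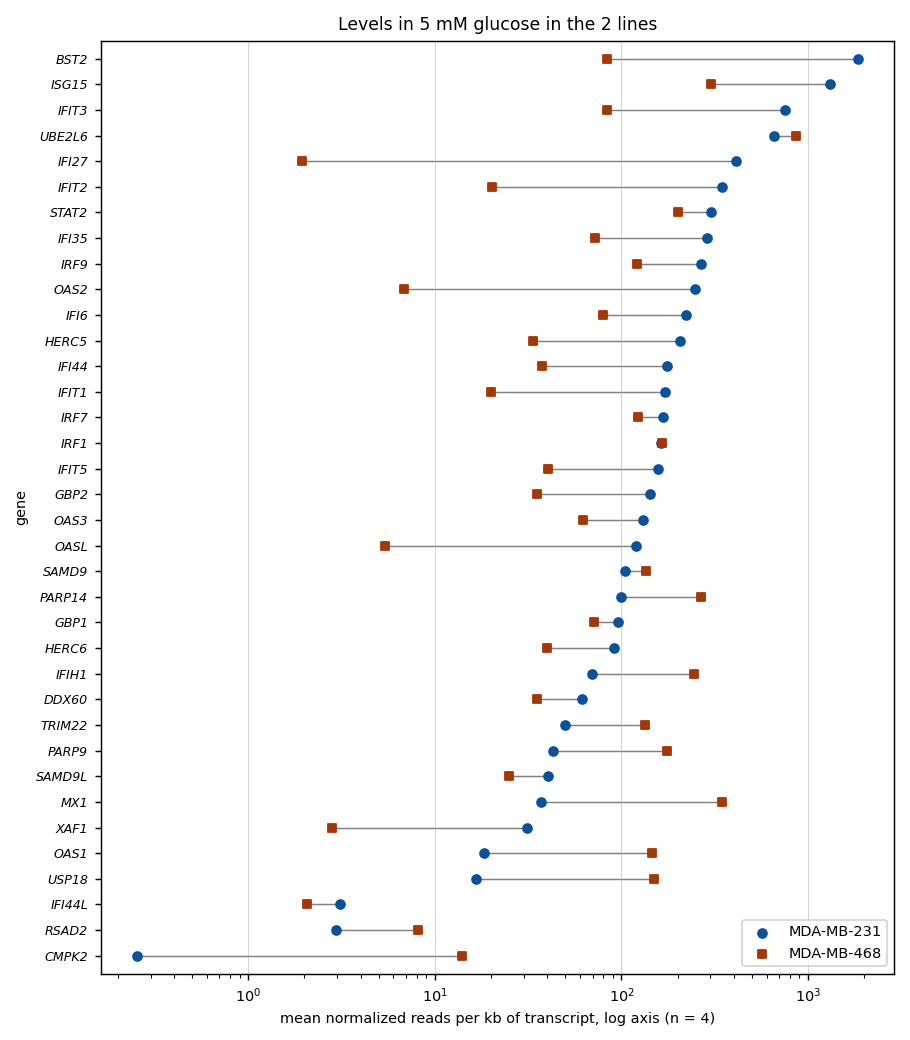
Mean normalized reads per kilobase of canonical transcript (log axis, n = 4 per line) for each of the 36 genes in 5 mM glucose, with circles for MDA-MB-231 and squares for MDA-MB-468. BST2 lies at 1860 (MDA-MB-231) and 84.0 (MDA-MB-468), and MX1 at 37.2 and 345.5.

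MX1, a dynamin-like GTPase that blocks viral replication, showed the largest difference in favor of MDA-MB-468 among the members with at least 5 CPM in the higher line. In low glucose MDA-MB-468 its 4 values were 998, 1014, 915.5 and 909 normalized reads, and in low glucose MDA-MB-231 they were 104, 93.9, 111 and 105. The groups did not overlap, and the log2 difference was 3.20 (SE 0.07, adjusted p = 1.13e-17). USP18, the protease that removes ISG15, had 299, 302, 247 and 266 normalized reads in MDA-MB-468 and 24.3, 33.3, 34.6 and 30.8 in MDA-MB-231. Its log2 difference was 3.14 (SE 0.11), and because it has a near-identical copy in the genome, USP41, its reads may be split between genes. OAS1, which makes the oligoadenylates that activate RNase L, had 243, 240, 230 and 240 normalized reads in MDA-MB-468 and 29.3, 26.4, 29.1 and 35.0 in MDA-MB-231 (log2 difference 2.96, SE 0.12). None of these 3 genes overlapped between the lines. PARP9, an ADP-ribosyltransferase family member, had 523, 498, 551 and 560 normalized reads in MDA-MB-468 and 118, 164, 118 and 120.3 in MDA-MB-231 (log2 difference 2.04, SE 0.09). IFIH1, the RNA sensor MDA5, had 905, 881, 881 and 834 in MDA-MB-468 and 228, 257, 221 and 284 in MDA-MB-231 (1.82, SE 0.06). RSAD2, TRIM22, SAMD9, PARP14, UBE2L6 and CMPK2 were also called higher in MDA-MB-468. UBE2L6 lost its call when libraries were corrected for transcript length.

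Among the genes higher in MDA-MB-231 were all 4 IFIT genes, which encode proteins that bind foreign RNA, 3 of the 4 OAS genes and 4 of the 5 IFI genes. IFIT2 had 1145, 1157, 1128 and 1237 normalized reads in low glucose MDA-MB-231 and 72.0, 67.5, 66.5 and 68.3 in MDA-MB-468 (log2 difference -4.07, SE 0.06, limma adjusted p = 1.19e-19). OAS2 had 1122.5, 1171, 1103 and 1168 in MDA-MB-231 and 34.8, 34.3, 21.9 and 35.0 in MDA-MB-468 (-5.16, SE 0.21), while its neighbor OAS1 differed in the opposite direction. BST2 had 1907, 1860, 1940.0 and 1740 in MDA-MB-231 and 90.9, 98.4, 83.1 and 63.8 in MDA-MB-468 (-4.47, SE 0.10). OASL, a catalytically inactive OAS relative, had 410, 372, 402 and 382 in MDA-MB-231 and 18.2, 21.0, 16.6 and 15.3 in MDA-MB-468 (-4.39, SE 0.14). IFI27, a small mitochondrial protein, had 292, 285, 332 and 271 in MDA-MB-231 and 1.58, 2.21, 0 and 1.80 in MDA-MB-468. These are 1261 reads against 6 reads, a ratio of 217 with an exact (Clopper-Pearson) 95% counting interval of 99.3 to 592. CMPK2, a mitochondrial nucleotide kinase, showed the reverse, with 191 reads in the low glucose MDA-MB-468 libraries and 3 reads in MDA-MB-231, a ratio of 61.7 (interval 20.8 to 302). These intervals cover counting error only. The other genes called lower in MDA-MB-468 were STAT2, IRF9, IRF7, DDX60, OAS3, GBP1, GBP2, ISG15, HERC5, HERC6, IFI6, IFI35, IFI44, SAMD9L and XAF1 beside IFIT1, IFIT3 and IFIT5.

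High glucose had small effects on these genes in MDA-MB-231. Of the 35 members that passed the filter on low values, 8 rose and 1 fell in high glucose, and 26 did not pass the test. STAT2, IRF9, IFIT1, IFIT2, IFIT3, OAS2, UBE2L6 and IFI35 rose, and OAS3 fell. CMPK2 did not pass the filter, with 3 reads in low and 2 in high glucose over the 4 libraries. Of the 14884 genes tested, 5.71% rose and 9.37% fell, beside 22.9% and 2.86% of the members. Every high glucose value lay above every low glucose value for 8 members, against 7.63% of all genes, and below for 1 member, against 11.1%. The median log2 fold change was 0.11 over the members and 0.0017 over all genes tested. The 8 rises ranged from 1.11-fold for OAS2 to 1.22-fold for IFI35 in the means. Among called genes, 0 members changed by 0.5 or more on the log2 scale, while 61 genes of all tested were called and rose and 127 were called and fell by as much.

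Among the transcription factors, STAT2 and IRF9 rose. STAT2 had 1239, 1375, 1332 and 1394 normalized reads in low glucose and 1512, 1427, 1541 and 1519 in high glucose, with no overlap. Its log2 fold change was 0.17 (SE 0.04, limma adjusted p = 0.0134). IRF9, the DNA-binding part of ISGF3, had 427, 433.5, 462 and 406 in low and 496, 485, 564 and 488 in high glucose, again with no overlap (0.23, SE 0.06, adjusted p = 0.0161). IRF7, the factor that amplifies interferon gene transcription, had 325, 323, 343 and 295 in low and 343.5, 327, 366 and 356 in high glucose, and IRF1, an early interferon response factor, had 591, 583, 597 and 544 and then 614, 634, 588 and 632. The groups overlapped for both, and neither passed the test (adjusted p = 0.272 and 0.250). The rise of STAT2 lost its call without low glucose replicate 1 (adjusted p = 0.0537), and that of IRF9 without high glucose replicate 3 (0.0656).

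Of the 4 IFIT genes, 3 rose in MDA-MB-231. IFIT1 had 697, 770.1, 708.5 and 780 normalized reads in low and 834, 848, 859 and 796 in high glucose (log2 fold change 0.18, SE 0.05, limma adjusted p = 0.0224). IFIT3 had 1794, 1798, 1742 and 1839 in low and 2054, 2030.1, 2028 and 1963 in high glucose (0.17, SE 0.03, adjusted p = 0.0022). IFIT2 averaged 1167 ± 48.3 (SD, n = 4) and 1296 ± 60.0, with overlap. IFIT5 averaged 631 ± 44.2 and 683 ± 7.72 and was not called. The IFIT3 call held under all 20 alternatives, while those of IFIT1 and IFIT2 were lost with the replicate number as a block and without single libraries. For IFIT1 these libraries were low glucose replicates 1 and 3 and high glucose replicates 1, 2 and 3 (largest adjusted p among all alternatives 0.0792). For IFIT2 they were low glucose replicates 1, 2 and 3 and high glucose replicates 1 and 2 (0.0983). The IFIT2 call was also lost with the transcript length correction and the block together.

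The OAS family split in MDA-MB-231. OAS2 rose from 1141 ± 33.8 to 1266 ± 18.3, and OAS3 had 882, 851, 862 and 839 normalized reads in low and 798, 774, 733 and 785 in high glucose, a fall of 0.15 on the log2 scale (SE 0.04, limma adjusted p = 0.0252). OAS3, another enzyme of this family, did not overlap between the groups. Its call was lost with the transcript length correction, with the replicate number as a block and with both together. It was also lost without low glucose replicate 1 or 3 or high glucose replicate 2 or 3 (largest adjusted p among all alternatives 0.139). OAS1 had 25.3, 32.6, 28.8 and 20.9 in high glucose, which overlapped with its low glucose values, and OASL averaged 392 ± 17.6 and 419 ± 12.1. IFI35, a leucine zipper protein that interacts with NMI, had the largest rise among the called members, with 348, 343.5, 346 and 322 in low and 408, 391, 417 and 437.5 in high glucose (0.28, SE 0.06, adjusted p = 0.0032). Its call and that of OAS2 held under all 20 alternatives. UBE2L6 rose from 796 ± 54.3 to 892 ± 21.9, a call lost under 10 of 20 alternatives, among them leaving out any MDA-MB-231 library except low glucose replicate 1 (largest adjusted p = 0.123).

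The canonical gene ISG15 had 834, 836, 884 and 769 normalized reads in low and 879, 857, 778 and 915 in high glucose MDA-MB-231 (log2 fold change 0.04, SE 0.06, adjusted p = 0.659). MX1 had 104, 93.9, 111 and 105 in low and 109, 128, 129 and 127 in high glucose (0.25, SE 0.10, adjusted p = 0.106). Neither gene passed the test, and the high glucose values overlapped with the low glucose values for both. The RNA sensors IFIH1 and DDX60, the guanylate binding proteins GBP1 and GBP2, the related ligases HERC5 and HERC6, and PARP9 and PARP14 were not called in this line.

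In MDA-MB-468, of 35 members that passed the filter, 15 fell in high glucose, 1 rose and 19 did not pass the test. The genes that fell were the RNA sensors IFIH1 and DDX60, all 4 IFIT genes, OAS1, OAS3, MX1, HERC5, HERC6, IRF1, IFI6, SAMD9L and PARP14, and GBP2 rose. IFI27 did not pass the filter, with 6 reads in low and 4 in high glucose over the 4 libraries. Of the 15757 genes tested, 22.7% fell and 24.9% rose in this line, beside 42.9% and 2.86% of the members. Every high glucose value lay below every low glucose value for 16 members, against 20.4% of all genes, and above for 1 member, against 22.2%. The median log2 fold change was -0.34 over the members and 0.0001 over all genes tested. Of the called members, 8 fell by 0.5 or more on the log2 scale and 1 rose by as much, while 6.52% of all genes tested were called with such a fall and 6.84% with such a rise. XAF1 (-0.89), RSAD2 (-0.61) and OAS2 (-0.53) had values of that size but did not pass the test (adjusted p = 0.142, 0.0731 and 0.133).

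**Figure D2:**
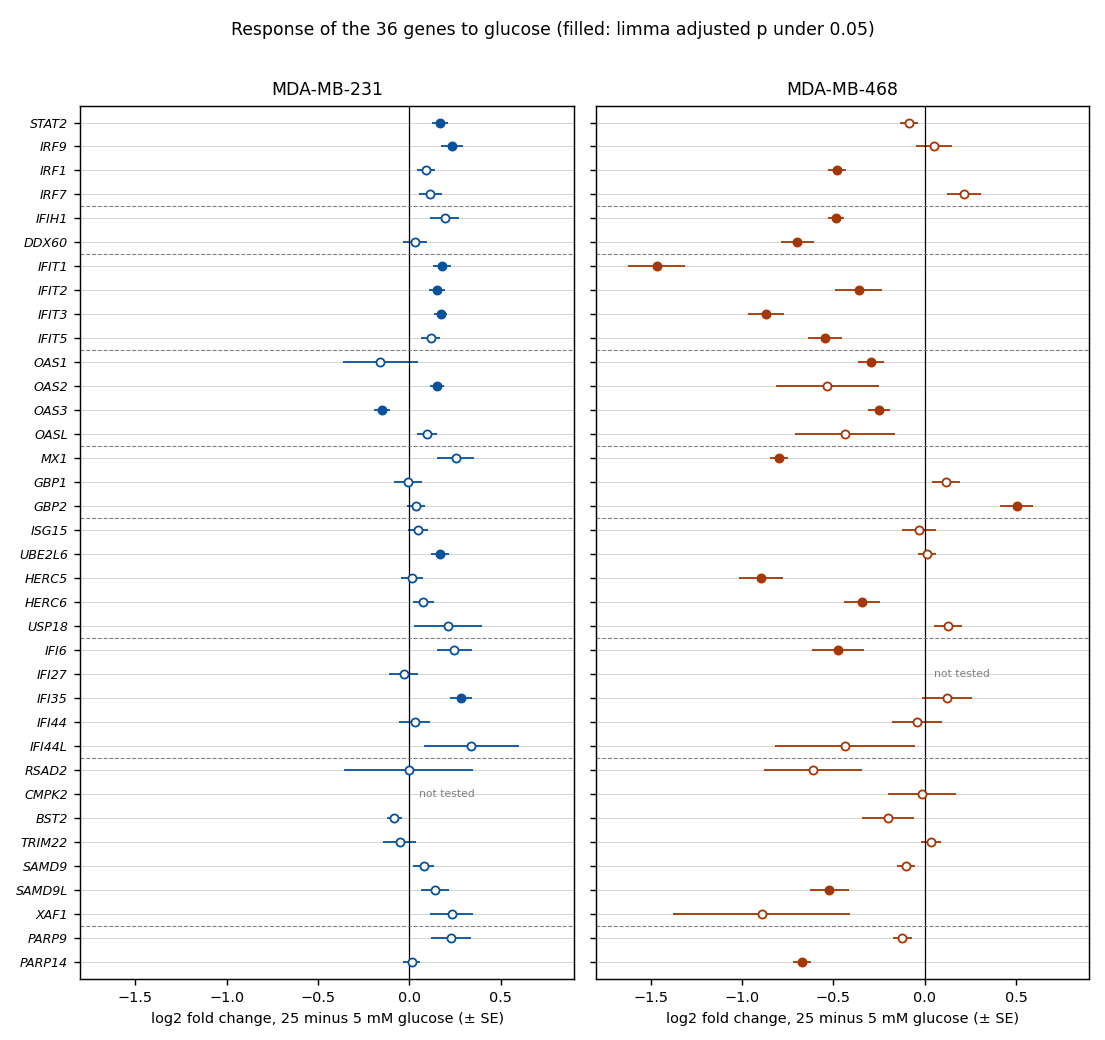
Log2 fold change of the 36 genes, 25 minus 5 mM glucose, with limma's SE as bars, in MDA-MB-231 on the left and MDA-MB-468 on the right, with dashed lines between functional groups. Filled points had an adjusted p under 0.05, 9 for MDA-MB-231 and 16 for MDA-MB-468, and IFIT1 in MDA-MB-468 lies farthest from 0 at -1.47.

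The IFIT family fell as a whole in MDA-MB-468. IFIT1 had 84.6, 99.5, 84.0 and 76.3 normalized reads in low and 27.2, 26.2, 32.05 and 37.1 in high glucose. The groups were far apart, and the change (log2 fold change -1.47, SE 0.16, limma adjusted p = 1.07e-06) was the largest fall of any member tested. IFIT3 had 191, 236, 178 and 200.3 in low and 114, 105, 116 and 102 in high glucose (-0.87, SE 0.10, adjusted p = 1.97e-06). IFIT5 averaged 163 ± 15.3 (SD, n = 4) and 111 ± 1.45 (-0.55, SE 0.09). IFIT2 had the smallest fall, from 68.5 ± 2.38 to 53.2 ± 4.38 (-0.36, SE 0.13, adjusted p = 0.0295). Its call was lost with DESeq2 and without low glucose replicate 1 or 4 or high glucose replicate 3 or 4 (largest adjusted p = 0.103), while the other 15 calls in this line held under all 20 alternatives. IFIT1 and IFIT3 carry the ISRE cores shown above, the nearest starting 103 and 51 bases before the start site.

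HERC5, the main E3 ligase for ISG15, had 134, 123, 103 and 110.5 normalized reads in low and 59.3, 61.2, 68.7 and 60.7 in high glucose MDA-MB-468, with no overlap (-0.90, SE 0.12, limma adjusted p = 1.06e-05). HERC6 fell to 118 ± 8.25 (SD, n = 4) in high glucose, with low glucose values of 139 to 172 (-0.34, SE 0.10). The rest of the ISG15 system did not pass the test in this line. ISG15 itself had 216, 159, 197 and 198 in low and 198, 175, 195 and 182 in high glucose (-0.03, SE 0.09, adjusted p = 0.812). UBE2L6 averaged 1046 ± 48.6 and 1054 ± 65.9, and USP18 278 ± 26.6 and 304 ± 16.7.

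MX1 had 998, 1014, 915.5 and 909 normalized reads in low and 532, 575, 539 and 555 in high glucose MDA-MB-468 (-0.80, SE 0.05, limma adjusted p = 2.03e-09). Every high glucose library was under every low glucose library. DDX60, a helicase that assists RNA sensing, had 214, 219, 228 and 189 in low and 145, 125, 121 and 131 in high glucose (-0.70, SE 0.09, adjusted p = 7.84e-06). IFIH1 fell from 875 ± 29.9 to 625 ± 15.1. OAS1 had 243, 240, 230 and 240 in low and 194, 188, 187 and 209 in high glucose (-0.29, SE 0.07, adjusted p = 0.0027). OAS3 fell from 410 ± 14.0 to 345 ± 20.0, whereas the low OAS2 and OASL values overlapped between the groups and were not called. PARP14, an ADP-ribosyltransferase of the macro-PARP group, fell from 2062 ± 80.1 to 1296 ± 96.7, IFI6, which limits apoptosis, from 64.9 ± 2.38 to 46.7 ± 6.45, and SAMD9L, a restriction factor and growth suppressor, from 178 ± 10.1 to 125 ± 18.5.

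The transcription factors took separate courses in MDA-MB-468. IRF1 had 554, 592, 593 and 612 normalized reads in low and 405, 421, 439.5 and 417 in high glucose, with no overlap (-0.48, SE 0.05, limma adjusted p = 1.05e-06). STAT2 had 888, 826, 929.5 and 904 in low and 816, 891, 799 and 835 in high glucose (adjusted p = 0.157). IRF9 had 212, 208, 172 and 196 in low and 191, 174, 225 and 229 in high glucose (adjusted p = 0.707). IRF7 had 240, 206, 253 and 242 in low and 260, 230, 287 and 317 in high glucose. Its log2 fold change (0.21, SE 0.09, adjusted p = 0.0741) passed the test without high glucose replicate 2 (adjusted p = 0.0132). The groups of STAT2, IRF9 and IRF7 overlapped. GBP2, a guanylate binding GTPase strongly induced by interferon gamma, was the single member that rose, with 141, 154, 146 and 137 in low and 200.3, 211, 177 and 233 in high glucose (0.50, SE 0.09, adjusted p = 0.0003). GBP1 averaged 205 ± 13.9 and 222 ± 9.62 and was not called. The gene bodies of GBP2 and GBP7 overlap on the same strand in the annotation, so its reads may be shared.

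**Figure D3:**
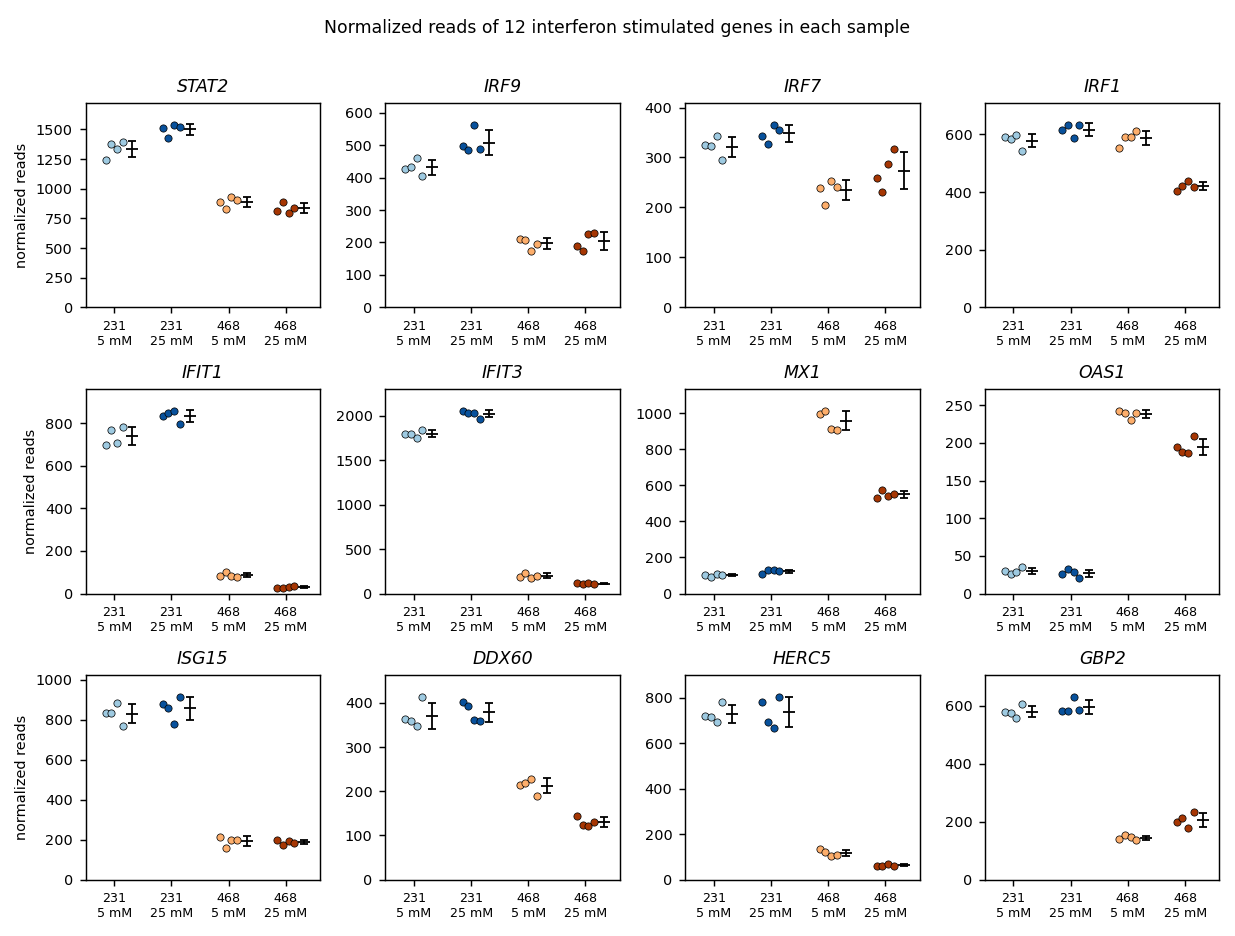
Normalized reads of 12 of the genes in each sample (points, 4 per group, linear axes from 0), with a dash and bar for the mean and SD. IFIT1 lies between 697 and 859 in MDA-MB-231 and between 26.2 and 99.5 in MDA-MB-468, and IRF1 is at a like level in both lines in 5 mM glucose, with means of 579 and 588.

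The difference of the glucose response between the lines was tested directly as the interaction contrast of a limma model over all 16 samples. The response in MDA-MB-468 was lower than in MDA-MB-231 for 16 of the 36 members and higher for 1, GBP2. Of the 17115 genes tested, 13.9% had a lower and 17.0% a higher response in MDA-MB-468. The median difference was -0.39 on the log2 scale over the members and -0.0036 over all genes. The contrast was largest for IFIT1 at -1.64 (SE 0.14, adjusted p = 1.89e-07). Among the called members MX1 followed at -1.05 (SE 0.09), IFIT3 at -1.04 (SE 0.09), HERC5 at -0.91 (SE 0.12) and DDX60 at -0.73 (SE 0.11). IFIT1, IFIT2 and IFIT3 were the 3 members called in both lines in opposite directions, higher in high glucose MDA-MB-231 and lower in high glucose MDA-MB-468. The second direction rests on the MDA-MB-468 glucose labels, against which ARRDC4 moved. Were those labels exchanged, the sign of every response in MDA-MB-468 would turn, these 3 genes would be called higher in both lines, and the contrast between lines would take other values. OAS3 was called lower in both lines, and its response did not pass the test of a difference (-0.10, SE 0.06, adjusted p = 0.268). STAT2 had a lower response in MDA-MB-468 (-0.25, SE 0.06, adjusted p = 0.0064), while IRF9 and IRF7 did not pass (adjusted p = 0.302 and 0.601). The interaction for OASL was lost under 18 of 28 alternatives and that for PARP9 under 12 of 28, mostly those that leave out 1 library.

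**Figure D4:**
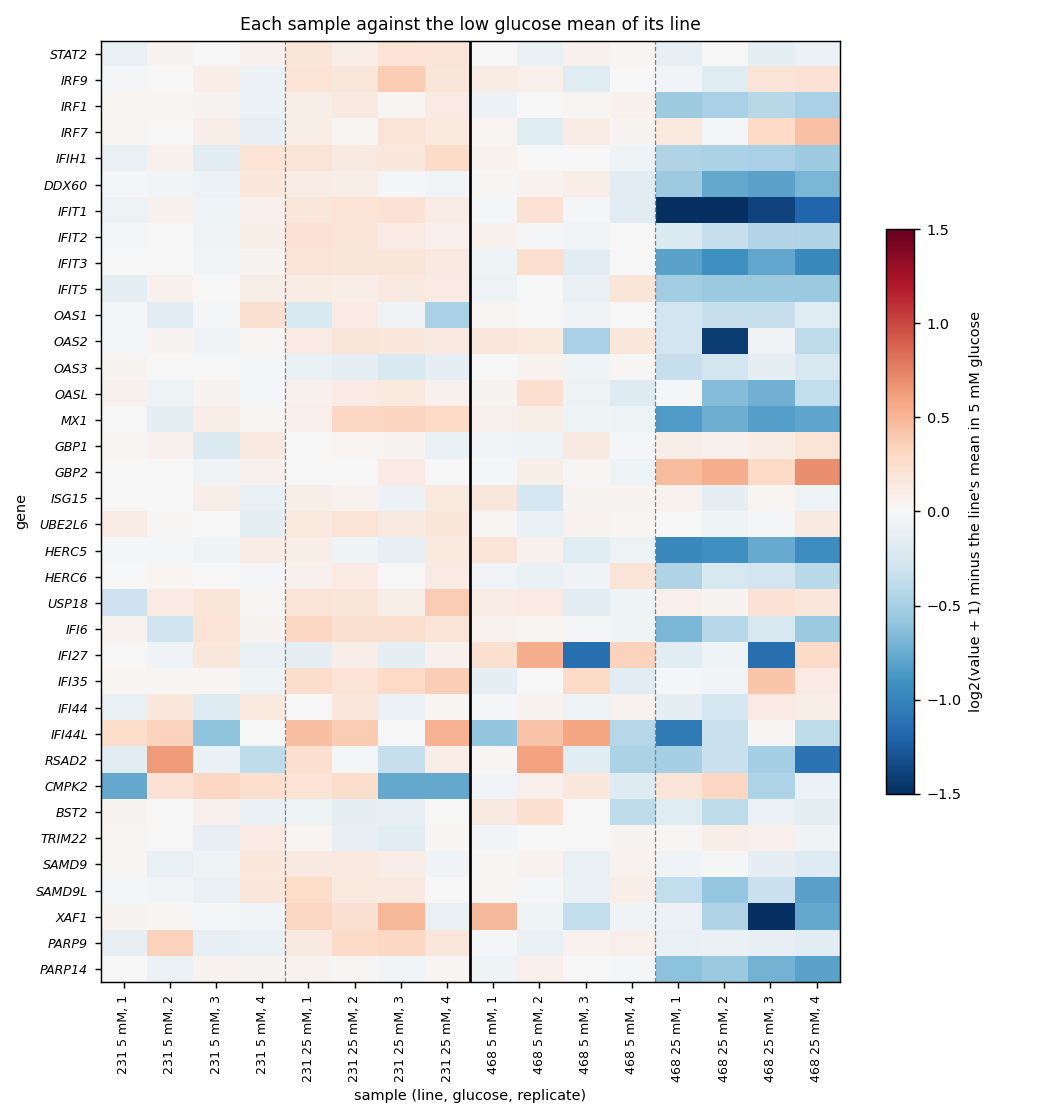
Log2(value + 1) of each gene in each sample minus the mean of the 4 low glucose samples of the same line, with columns for MDA-MB-231 on the left and MDA-MB-468 on the right and the color scale limited to 1.5 in either direction. The 4 high glucose MDA-MB-468 samples are mostly blue, with medians over the members from -0.33 to -0.20, and the 4 high glucose MDA-MB-231 samples are pale red, with medians from 0.11 to 0.13.

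Each high glucose library showed the direction of its group. Against the low glucose mean of the line, the median of the 36 members was between 0.11 and 0.13 in the 4 high glucose MDA-MB-231 libraries and between -0.33 and -0.20 in the 4 high glucose MDA-MB-468 libraries, while the median of all genes tested was at most 0.013 in any library. In MDA-MB-468, between 26 and 30 of the 36 members were under the low glucose mean in each high glucose library. In MDA-MB-231, between 23 and 31 of the 36 were above it, with 13 under it in high glucose replicate 3. The summed normalized reads of the 36 genes were 18739 to 19096 in low and 19913 to 20289 in high glucose MDA-MB-231, and 11691 to 11885 in low and 9546 to 9640.3 in high glucose MDA-MB-468.

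The genes that fell in MDA-MB-468 included some lower and some higher than in MDA-MB-231 at low glucose. Of the 15 genes that fell, 10 were among the 23 members lower than in MDA-MB-231, such as IFIT1 and HERC5. Another 4 were among the 11 higher members, namely IFIH1, OAS1, MX1 and PARP14. Both comparisons use the same low glucose MDA-MB-468 libraries, so these counts are given side by side and not as a relation. Of the 14 genes that fell and have a promoter entry, 10 (71.4%) held the ISRE core, and of the 15 other members with an entry 9 (60.0%) did. Of the 6 members that rose in MDA-MB-231 and have an entry, IFIT1 and IFIT3 held it, and STAT2, IRF9, UBE2L6 and IFI35 did not. The IFI35 promoter holds gaaatgaaa, and that of OAS1, also without a match, holds gaaacgaaa. That shorter spacing was not searched.

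In MDA-MB-231 the called genes upstream of the members all rose, in a line where 5.71% of all genes rose and 9.37% fell. Of 6 interferon receptor chains, IFNLR1, the specific chain of the interferon lambda receptor, rose (0.50, SE 0.08, limma adjusted p = 0.0003). JAK1 averaged 2785 and 2668, IFNAR1 1523 and 1426, and IFNAR2 142 and 134 normalized reads in low and high glucose, and these 3 genes were not called. Of 10 nucleic acid sensors and adaptors, RIGI, STING1 and TLR3 rose. RIGI, which encodes the RNA sensor RIG-I, rose from 2283 to 2697 (0.24, SE 0.03, adjusted p = 8.82e-05), STING1, the adaptor of the DNA sensor cGAS, from 1027 to 1191 (0.21, SE 0.05), and TLR3, the endosomal receptor for double-stranded RNA, from 74.4 to 103 (0.45, SE 0.13). CGAS averaged 595 and 562 and was not called. Of 7 negative regulators TRIM21 rose (0.27, SE 0.08). Of 26 other interferon stimulated genes tested, ISG20, SP110, TRIM25 and APOL6 rose (15.4%) and 0 fell by limma, edgeR or DESeq2, with 1 lower at an unadjusted p under 0.05 in limma.

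In MDA-MB-468 the upstream genes were called in both directions. IFNAR1 fell from 2659 to 2209 (-0.27, SE 0.04, limma adjusted p = 3.17e-05) and IFNGR1 from 2303 to 1922, while IFNGR2 and IL10RB rose and IFNAR2 (476 and 514) was not called. JAK1 averaged 2742 and 2634 and did not pass the test (-0.06, SE 0.04, adjusted p = 0.213). JAK2 rose (0.51, SE 0.11) and STAT3 fell (-0.39, SE 0.03). Of the sensors and adaptors, RIGI fell from 349 to 194 (-0.85, SE 0.07, adjusted p = 6.39e-08), beside DHX58, TBK1 and IRF3, and STING1 rose from 846 to 1107 (0.39, SE 0.05) beside IRF5. CGAS averaged 42.4 and 43.99 and was not called. RIGI thus was called in opposite directions in the lines, and its interaction was -1.09 (SE 0.07, adjusted p = 5.17e-09). The feedback inhibitor SOCS1 fell from 61.0 to 38.6 (-0.65, SE 0.15), the single call among 7 negative regulators. Of 24 other interferon stimulated genes tested, 6 fell (EIF2AK2, PARP12, SP100, LGALS3BP, APOL1 and APOL6) and 4 rose (IFITM2, IFITM3, TRIM5 and PLSCR1), shares of 25.0% and 16.7% beside 22.7% and 24.9% of all genes.

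Reads of some members may be shared with other genes, since the counting program and its use of strand are not given in the sources used here. In the annotation of build GRCh37, IFIT1, IFIT2 and IFIT3 lie within chromosome 10, positions 91043451 to 91166244, where an isoform of LIPA spans them on the opposite strand. OAS1, OAS3 and OAS2 lie side by side on chromosome 12, positions 113343661 to 113449528. RSAD2 and CMPK2 overlap on opposite strands of chromosome 2, and on other chromosomes the same holds for TRIM22 and TRIM5, MX1 and TMPRSS2, PARP9 and DTX3L, and IRF1 and IRF1-AS1. Members of the IFIT, OAS, GBP and SAMD9 families have related sequences. How far shared reads enter these values was not tested.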

How the data were processed

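RNA of 16 samples of MDA-MB-231 and MDA-MB-468 was sequenced. Per the study's methods, the authors trimmed reads and aligned them with TopHat to hg19 with an Ensembl annotation. They used DESeq2 for differential expression and edgeR for normalized counts. The submitters' processing notes also name edgeR but give hg38 as the build. The deposited file holds normalized signal: the authors scaled the reads of every gene by 1 size factor per library. Dividing by the smallest step returned whole reads for 100% of values (tolerance 0.001 read). Groups and replicate numbers came from the sample labels. Symbols were found for 17647 of 18332 IDs, with lengths and positions from GENCODE lifted to GRCh37. Promoters came from RefSeq (GRCh38.p14).

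Genes reaching 0.5 CPM in 2 or more samples of a fit were tested on log2(value + 1) with limma 3.58.1 in R 4.3.3 (lmFit, eBayes with trend, two-sided, Benjamini-Hochberg over all genes tested, threshold 0.05). Fold changes are on that scale and understate changes of low genes. Each line was fitted alone for glucose (8 samples). A model of 4 group means gave the difference of the responses and the difference between lines. edgeR 4.0.16 (quasi-likelihood) and DESeq2 1.42.0 on recovered reads, other pseudocounts, filters and scalings, a length correction, the replicate number as a block and leaving out each library were alternatives. Depth was 14094597 to 24425916 reads. The fits were tested on simulated data. The members and lists were chosen with earlier results of these data known. Values per sample are given for STAT2, IRF9, IRF7, IRF1, ISG15, MX1, IFIT1 and OAS1, and in each comparison for up to 5 called members in each direction with the largest change, provided the higher group averaged 5 CPM or more. The deviations of same-numbered samples correlated by -0.040 to -0.005 in MDA-MB-231 and by 0.017 to 0.032 in MDA-MB-468. These values are near 0, so no pairing was used. In MDA-MB-468, low glucose replicates 1, 2 and 3 each correlated most with the high glucose library of the same number.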

Additional observations from a re-analysis of the deposited data

Results flagged for a closer look

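Single libraries stood apart in 9 of the 144 groups of 4 values examined (36 genes in 4 groups), by a gap to the nearest replicate above Dixon's 95% critical value. Chance alone gives about 1 in 20 such groups. In high glucose MDA-MB-231 these were IRF9 in replicate 3 at 563.8 normalized reads, GBP2 in replicate 3 at 629.7, MX1 in replicate 1 at 109.0 and SAMD9 in replicate 4 at 684.8. In low glucose MDA-MB-231 they were PARP9 in replicate 2 at 164.4 and CMPK2 in replicate 1 at 0. CMPK2 had only 3 reads over the 4 libraries of that group, so its flag reflects a step of a single read. In low glucose MDA-MB-468 they were OAS2 in replicate 3 at 21.9, GBP1 in replicate 3 at 225.8 and HERC6 in replicate 4 at 171.6.

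The glucose response differed between the lines for 17 members by the interaction contrast of limma, given as MDA-MB-468 minus MDA-MB-231 on the log2 scale. The value was -1.64 for IFIT1, -0.51 for IFIT2, -1.04 for IFIT3 and -0.66 for IFIT5. It was -1.05 for MX1, -0.91 for HERC5, -0.42 for HERC6, -0.73 for DDX60 and -0.68 for IFIH1. It was -0.72 for IFI6, -0.68 for PARP14, -0.35 for PARP9, -0.66 for SAMD9L and -0.53 for OASL. Of the transcription factors it was -0.57 for IRF1 and -0.25 for STAT2, and GBP2 had the single positive value at 0.46.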

How the results depend on the processing

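No result changed direction past the threshold under any alternative. In MDA-MB-231 the count of members that rose went from 8 to 5 and that of members that fell from 1 to 0 with the replicate block, and with the length correction and the replicate block together 0 fell. With the length correction alone BST2 was called lower and OAS3 was not. In MDA-MB-468 the count that rose went from 1 to 2 with the replicate block, with and without the length correction, by IRF7. The labels do not say whether the numbers pair the samples, and each same-number correlation was under 0.1. Leaving out 1 library gave 5 to 8 rises and 0 to 2 falls in MDA-MB-231, 1 to 2 rises and 14 to 16 falls in MDA-MB-468, 1 higher and 14 to 16 lower responses in the interaction, and 11 higher and 23 to 24 lower between lines. The rises in MDA-MB-231 were 5 without low glucose replicate 1 and without high glucose replicate 1, 2 or 3. The fall there was not called without low glucose replicate 1 or 3 or high glucose replicate 2 or 3, and 2 falls were called without low glucose replicate 4. In MDA-MB-468, 2 rises were called without high glucose replicate 2. With only the 200 bases before the start searched, the shares of members with a motif stayed at 65.5% and 31.0%, and those of all genes were 2.97% for ISRE and 6.32% for GAS. At these depths, genes near 3 reads, such as IFI27 in MDA-MB-468 and CMPK2 in MDA-MB-231, allow no statement on a glucose response. The other counts named in the text stayed within 1.5 times under the alternatives run.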
